A study of Bos taurus with 12 samples.

Results

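Immature oocytes of prepubertal heifers were compared with those of adult cows of the Japanese Black breed, on 6 of the 12 bovine Affymetrix arrays of the study. All 6 arrays held germinal vesicle (GV) oocytes, which were taken straight from follicles of 2 to 8 mm and were not matured. The prepubertal group was 3 pools from heifers aged 9 to 12 months, and the adult group was 3 pools from cows whose age the labels do not give. Each array held RNA of 50 oocytes freed of their cumulus cells. The other 6 arrays held oocytes of the same 2 ages that had reached metaphase II (MII) after 20 to 22 h of culture, and they were used for the shared estimate of spread and for a comparison in other pools. Ovaries of heifers were taken with a spay device on farms and those of cows came from an abattoir, so donor age and the way the ovaries were obtained cannot be told apart. The pools are called biological replicates, and nothing names separate animals or days, so the p-values measure only the spread between these pools.

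A GV oocyte is arrested in the first meiotic prophase and carries the mRNA store on which maturation, fertilization and the first cleavages run, since its genome is nearly silent once it is fully grown. It receives metabolites and cyclic nucleotides from cumulus cells through gap junctions, and high cyclic AMP keeps the cyclin B and CDK1 kinase inactive. Oocytes of young heifers are known to support embryo development less well than those of cows.

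Of 24016 probe sets, 14409 were bright enough to be tested. Values are log2 signals, on which a difference of 1 is a 2-fold difference, and every difference is prepubertal minus adult. The comparison was fitted with limma over 3 against 3 pools (the 12-array fit), and again without the first prepubertal and the first adult pool (the 9-array fit, 2 against 2). The second fit is nested in the first, so a result in both fits has not been seen independently.

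The first pool of each age lacked the profile of an oocyte. GDF9 and BMP15 encode growth factors that the oocyte secretes, and ZP2 and ZP4 encode proteins of the zona pellucida. The first pools were set apart because these genes read low in them, so their low values there were fixed by that choice. They are part of the 9 oocyte genes. The 9 oocyte genes on the array were all above the array's median in prepubertal pools 2 and 3 and adult pools 2 and 3, and their median lay 5.49 to 8.32 above it. In prepubertal pool 1 only 1 of the 9 was above the array's median. In adult pool 1, 7 of the 9 were above it, but their median exceeded it by only 0.76. Other bright genes were low in adult pool 1 too. The median of its cytosolic ribosomal protein genes exceeded the array's median by 0.02, against 3.26 to 6.57 on the other GV arrays. For translation factors it was -0.21 against 2.25 to 5.16.

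These 2 pools differed from each other as well. Prepubertal pool 1 had 15 of 22 cumulus and granulosa markers above its array's median, against 7 to 11 on the other 5 GV arrays, and 13 of 16 markers of theca and stroma, against 6 to 11. PTX3, a component of the expanded cumulus matrix, read 14.66, 2.62 and 4.46 in the prepubertal pools and 7.61, 1.92 and 3.42 in the adult pools. For INHA, which encodes a subunit of the granulosa hormone inhibin, the values were 12.37, 4.74 and 2.50 against 7.99, 4.89 and 2.63. Markers of blood and endothelium were above the array's median in 1 to 5 of 13 cases on each GV array. STAR, a marker of steroidogenic cells on the cumulus and granulosa list, went the other way from PTX3 and INHA. It read 5.10, 11.77 and 13.12 against 4.91, 12.30 and 13.58. In pooled RNA, fewer cells of a type and less RNA per cell cannot be told apart.

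**Figure D1:**
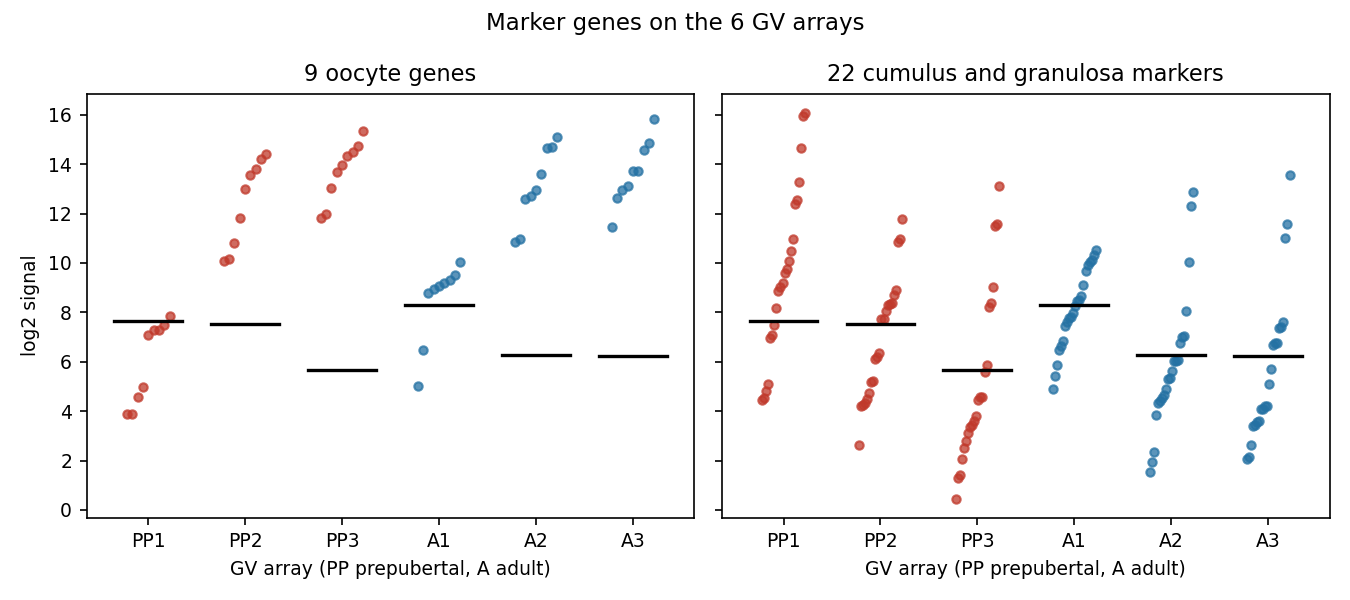
Log2 signal (y axis) of 9 oocyte genes (left) and 22 cumulus and granulosa markers (right) on each GV array (x axis), with red points for prepubertal pools, blue points for adult pools and a black bar for the array's median. The oocyte genes lie above the bar on 4 arrays, and around or below it on PP1 and A1, while PP1 has the largest share of somatic markers above its bar (15 of 22).

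Rank correlations across the tested probe sets show how far the 4 other arrays resemble each other. The Spearman coefficient was 0.559 between prepubertal pools 2 and 3 and 0.596 between adult pools 2 and 3. Across the ages it was 0.612 and 0.518 for prepubertal pool 2, and 0.652 and 0.676 for prepubertal pool 3. The coefficients within an age thus lay inside the range of those across ages. Prepubertal pool 1 reached 0.321 to 0.421 with these 4 arrays, and adult pool 1 only -0.11 to 0.138. These coefficients are across probe sets of the same platform, which are not independent replicates.

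No probe set passed the adjusted threshold of 0.05 in limma with Benjamini-Hochberg adjustment in either fit, a share of 0.0%. The lowest adjusted p was 1.0 with 12 arrays and 0.251 with 9 arrays. At unadjusted p under 0.05 there were 362 probe sets (2.51%) in the 12-array fit, 286 higher (1.98%) and 76 lower (0.527%) in prepubertal oocytes. The 9-array fit gave 668 (4.64%), 467 higher (3.24%) and 201 lower (1.39%). The median difference of all tested probe sets was 0.25 with 12 arrays and 0.23 with 9 arrays, and 57.6% and 57.0% of them lay above 0. Median centring of the arrays moved the 9-array median to -0.10 and quantile normalization moved it to 0.02, so the small general excess in prepubertal pools with 9 arrays depended on the scaling.

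A total of 198 probe sets (1.37%) had unadjusted p under 0.05 with the same sign in both fits. Of these, 156 (1.08%) were higher and 42 (0.291%) were lower in prepubertal oocytes, which makes 78.8% higher. The split was 70.4% with quantile normalization and 67.6% with median centring. Values of the 3 prepubertal and the 3 adult pools did not overlap for 114 of the higher (0.791% of all tested) and 33 of the lower (0.229%). Over all tested probe sets, 548 (3.8%) were higher and 271 (1.88%) lower without overlap.

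**Figure D2:**
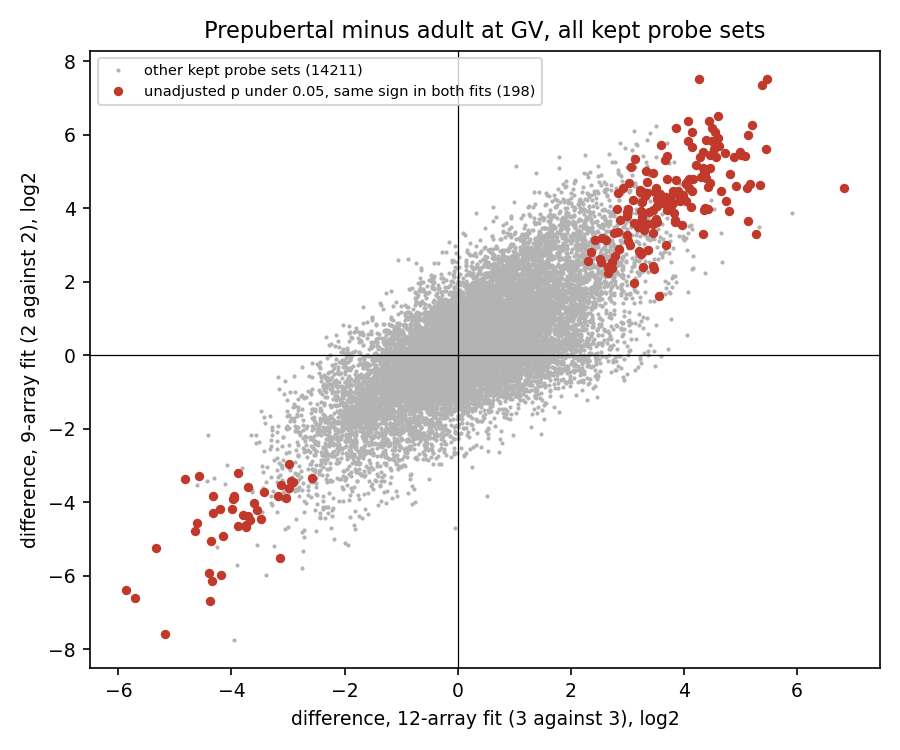
Prepubertal minus adult difference in log2 units for each tested probe set, with the 12-array fit on the x axis and the 9-array fit on the y axis. The 198 red points have unadjusted p under 0.05 and the same sign in both fits, and they lie at the 2 ends of a cloud of 14211 grey points, far from 0 on both axes.

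Named here are 27 genes of this set, 14 higher and 13 lower, whose pools did not overlap and whose higher group lay above the array's median on every array. They are grouped below by what their products are known to do, a grouping made after the genes were known. All of them have an adjusted p far above the threshold, so their values are given as measurements and none is counted as changed.

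Mitochondrial genes stood on both sides. MRPS25, a protein of the small mitochondrial ribosomal subunit, read 8.49, 8.24 and 9.38 in the prepubertal pools and 4.48, 3.71 and 4.54 in the adult pools. Each group was tight and the gap between them was wide, with a difference of 4.46 (SE 1.39) in the 12-array fit and 4.69 (SE 1.66) in the 9-array fit. TRMU, which thiolates mitochondrial tRNAs, read 9.74, 9.93 and 10.66 against 5.78, 2.96 and 6.59, with a difference of 5.00 (SE 1.27). NDUFAF5, an assembly factor of respiratory complex I, read 11.19, 11.43 and 10.26 against 8.36, 9.60 and 1.91. For this gene the third adult pool set most of the distance, and the 9-array difference of 5.09 became 1.24 without it.

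An enzyme of the citric acid cycle and an enzyme of fatty acid breakdown were among the lower genes. FH, the fumarase, read 4.44, 2.93 and 7.16 against 8.84, 7.26 and 11.44, so the third prepubertal and the second adult pool nearly met. Its difference was -4.33 (SE 1.39) with 12 arrays and -4.30 (SE 1.63) with 9. DECR1, which mitochondria need to oxidize unsaturated fatty acids, read 8.15, 7.76 and 4.91 against 9.88, 9.60 and 10.31, a difference of -2.99 (SE 1.37). A second DECR1 probe set had the opposite sign, with 1.37 in the 12-array fit and 2.01 in the 9-array fit. IDH1, the cytosolic isocitrate dehydrogenase that makes NADPH, was higher, with 11.01, 11.72 and 11.22 against 8.49, 9.65 and 2.42. The prepubertal pools agreed closely for IDH1, and its 9-array difference of 5.44 became 1.82 without the third adult pool.

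Phosphatases and calcium-dependent signalling genes supplied 4 of the higher genes. PPP1CC, a catalytic subunit of protein phosphatase 1, an enzyme that reverses kinase action in the meiotic cell cycle, read 8.5, 9.74 and 8.32 in prepubertal pools and 5.08, 4.46 and 1.62 in adult pools. The difference was 5.13 (SE 1.61) and 5.99 (SE 1.96) in the 12-array and 9-array fits, and 3.31 and 3.68 with a pseudocount of 32. PPP3CA, the catalytic subunit of calcineurin, read 10.00, 9.60 and 7.82 against 7.64, 3.83 and 2.34, and the prepubertal pool 3 and the adult pool 1 nearly met. DAPK1, a calmodulin-regulated kinase linked to cell death, read 8.63, 9.64 and 11.14 against 5.45, 1.61 and 8.16. SYT4, a synaptotagmin of vesicle traffic, read 9.16, 10.51 and 9.56 against 5.04, 8.42 and 2.53. The last 2 genes each had one very low adult pool, and without it the 9-array difference went from 5.51 to 2.23 for DAPK1 and from 4.57 to 1.62 for SYT4.

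Genes of membrane proteins also stood on both sides of the comparison. SLC31A1, the copper importer, read 10.76, 10.19 and 8.36 against 6.92, 5.12 and 2.65, a difference of 4.88 (SE 1.51). CD46, a regulator of complement, read 12.94, 11.92 and 12.02 against 8.33, 8.54 and 5.56. ITM2B, a membrane protein processed by furin, read 14.18, 8.58 and 9.80 against 7.92, 6.20 and 3.10, and its highest value belonged to the pool with the somatic profile. Without that pool and adult pool 1 its difference was 4.54 (SE 1.57), beside 5.12 (SE 1.84).

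In the lower membrane genes each adult pool was more than 2 log2 units above each prepubertal pool. ABCC1, an export pump for glutathione conjugates, read 4.91, 3.76 and 1.91 in the prepubertal and 9.27, 7.58 and 7.66 in the adult pools. These prepubertal values are dim, and with a pseudocount of 32 its 9-array difference of -4.79 became -2.50. SLC28A3, a sodium-coupled nucleoside importer, read 3.32, 7.69 and 7.34 against 11.11, 11.30 and 10.45, with adult pools within 1 log2 unit of each other. CD44, the hyaluronan receptor of cumulus cells, read 4.52, 4.33 and 1.29 against 8.65, 6.74 and 6.69. With a pseudocount of 32 its 9-array difference of -3.90 became -1.69 (unadjusted limma p 0.0751). It was the only one of the 14 tested cumulus and granulosa markers in the set, beside 0.291% of all tested probe sets lower in both fits. Most of that list went the other way, with 11 of 14 higher with 12 arrays and 9 of 14 with 9.

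Regulators of transcription and RNA made up a further group. TCF3, a basic helix-loop-helix factor, read 11.20, 10.77 and 12.41 against 6.79, 2.52 and 9.80. The second adult pool was far below the others for TCF3, and the 9-array difference of 5.43 was 1.79 without it. RBM24, an RNA-binding protein, read 7.95, 11.21 and 10.11 against 5.94, 5.77 and 3.73. TCF4, of the same family as TCF3, was on the other side with 6.41, 5.34 and 6.07 against 8.70, 7.57 and 10.92.

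GPS2, a subunit of a nuclear corepressor complex, read 4.96, 5.14 and 3.07 in the prepubertal pools and 8.57, 8.09 and 8.49 in the adult pools. Its adult pools had an SD of 0.26, the smallest of any group among the 27 genes. EAF1, a partner of the elongation factor ELL, read 5.51, 4.81 and 2.70 against 9.75, 7.89 and 7.98. HMGXB4, an HMG-box protein, read 4.31, 7.68 and 5.86 against 9.03, 11.16 and 11.49.

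The rest were single genes of other functions. RANGRF, which acts on the nuclear transport GTPase Ran, read 4.26, 5.72 and 5.6 against 9.48, 9.28 and 8.47, with a difference of -3.88 (SE 1.47). KRT5, a keratin of basal epithelia, read 5.36, 6.89 and 6.32 against 10.70, 8.58 and 12.30. NRBF2, a component of the autophagy lipid kinase complex, read 7.78, 7.32 and 1.82 against 9.27, 8.49 and 9.56, so that its distance came mostly from the third prepubertal pool. TTI2, a cochaperone for kinases of the ATM family, read 8.56, 6.31 and 8.70 against 9.61, 9.87 and 11.82. NEURL1, annotated as a ubiquitin ligase, read 10.76, 8.88 and 9.66 against 5.77, 7.48 and 2.11.

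The name of that last probe set is uncertain. A probe set named CCNI, an atypical cyclin, belongs to the same transcript cluster of the array by its identifier and read 11.85, 10.42 and 10.19 in prepubertal pools against 8.44, 5.40 and 6.82 in adult pools. It was singled out after its values were seen.

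**Figure D3:**
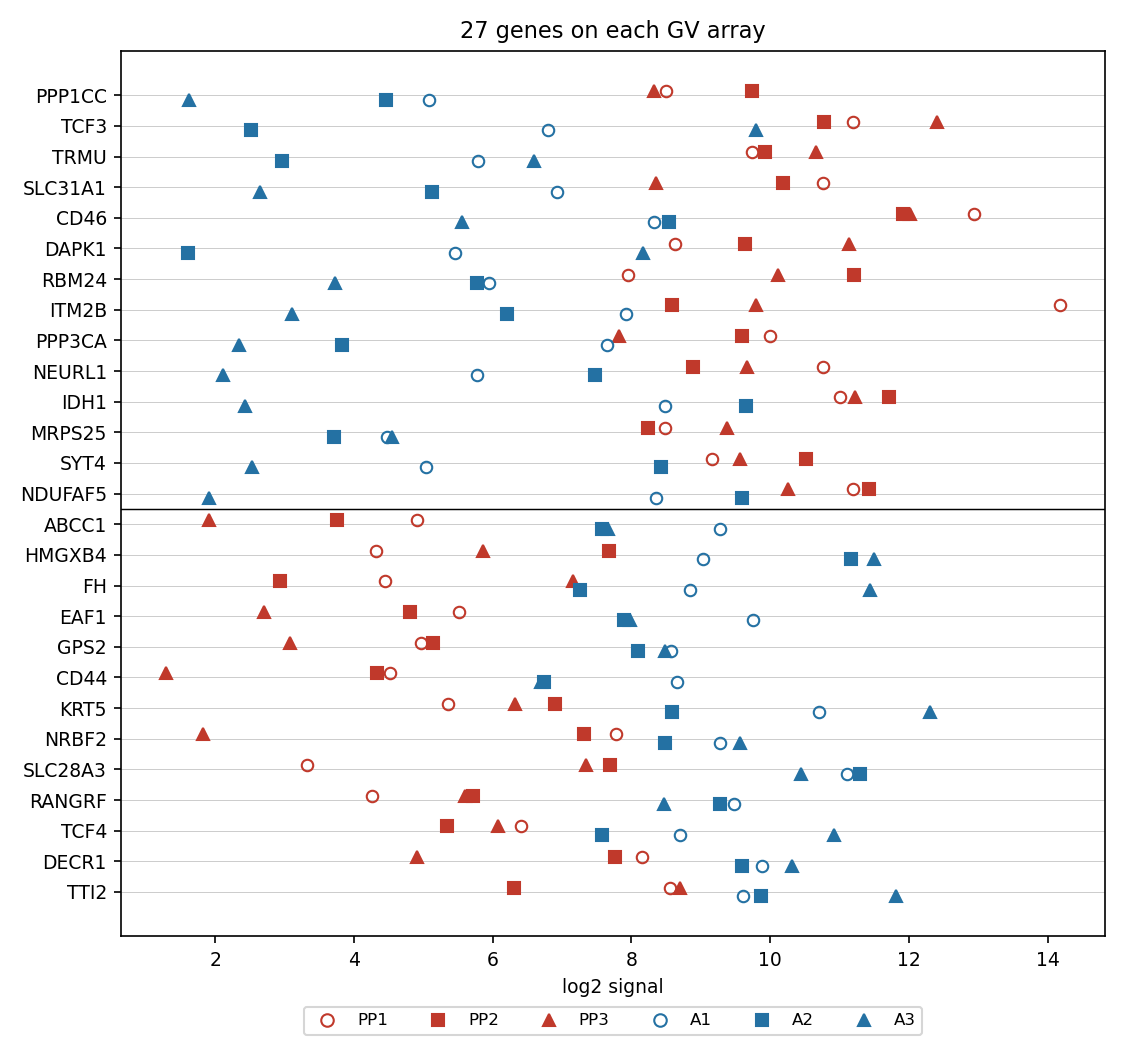
Log2 signal (x axis) of 27 genes (y axis) in each GV pool, with red symbols for prepubertal and blue for adult pools, open circles for pool 1, squares for pool 2 and triangles for pool 3. The groups do not overlap in any gene, because the genes were chosen that way, and among the 14 upper genes the leftmost symbol is a triangle or square of an adult pool, as for NDUFAF5 at 1.91 and DAPK1 at 1.61.

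The lowest value of the 6 pools came from a few arrays. Of the 156 higher probe sets, the third adult pool was lowest in 85 and the second in 57. Over all tested probe sets these arrays were lowest in 21.7% and 15.6%. The highest value was spread evenly, with 58, 52 and 46 in prepubertal pools 1, 2 and 3. Of the 42 lower probe sets, the third prepubertal pool was lowest in 26. That array was lowest in 22.5% of all tested probe sets, and the 42 were chosen for low prepubertal values.

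Other probe sets of the same genes offered a check that the rule had not used. For 14 of the 27 genes, 15 other tested probe sets were on the array. Of these, 7 had the same sign as the named probe set in both fits, and 0 had unadjusted p under 0.05 in both fits in limma. A second probe set of PPP1CC read 11.52 and 11.26 in prepubertal pools 2 and 3 against 10.91 and 11.21 in adult pools 2 and 3. For FH the second probe set read 10.28 and 11.56 against 10.65 and 11.84, and for EAF1 a probe set of another transcript cluster read 14.92 and 15.07 against 15.45 and 14.30. In these pools the brighter probe sets of FH and EAF1 overlapped between the ages, and for PPP1CC the ages were only just apart. NDUFAF5 was nearest to a repeat, with 12.56 and 10.99 against 12.16 and 6.32, and the low value was again that of the third adult pool.

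Over the whole set, 125 genes were named and had 102 other tested probe sets, of which 58 (56.9%) had the same sign in the 9-array fit. Over all 2913 pairs of tested probe sets of one gene, the share with the same sign was 54.2%. Some genes are annotated on several unrelated transcript clusters of the array. Among pairs of the same cluster the shares were 61.1% (33 of 54) for the set and 56.1% (of 1564 pairs) for all genes.

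The set came mostly from the dim classes, as did the tested probe sets. By the mean of the 4 arrays with an oocyte profile, 57 lay below 6 (1.69% of that class) and 77 between 6 and 8 (1.42%). There were 51 between 8 and 10 (1.81%) and 13 between 10 and 12 (0.703%), beside 1.37% of all tested probe sets. None of the 787 probe sets between 12 and 14 or of the 170 above 14 was in the set. At unadjusted p under 0.05 in the limma fit with 9 arrays these 2 brightest classes held 20 (2.54%) and 6 (3.53%). Their median standard error was 0.67 and 0.46 log2 units with 9 arrays, but 1.40 and 1.72 with 12 arrays, so the pools without an oocyte profile widened the error most among bright genes. Below 6 the median standard errors were 1.91 and 1.76.

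Bright genes differed little between the ages in the 4 arrays with an oocyte profile. The 9-array difference lay within 1 log2 unit for 97.1% of the probe sets above 14 and for 87.9% of those between 12 and 14. The share was 35.2% below 6. The median size of a difference was 0.38 above 14 and 1.45 below 6.

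Among the 9 oocyte genes, 0 passed at unadjusted p under 0.05 in limma in either fit. Of all tested probe sets, 2.51% did so with 12 arrays and 4.64% with 9, so little is read from 0 among 9 genes. GDF9 read 13.58 and 14.35 in prepubertal pools 2 and 3 and 12.71 and 13.73 in adult pools 2 and 3, a 9-array difference of 0.74 (95% interval -0.50 to 1.99). BMP15 read 14.21 and 14.72 against 15.10 and 14.56, a difference of -0.36 (-1.17 to 0.44). ZP2 read 14.41 and 15.33 against 14.68 and 15.82, a difference of -0.38 (-1.34 to 0.59). The values of the ages overlapped for all 3 genes. The first pools were left out because these genes read low in them, so that choice favours like values in the pools kept.

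NLRP5, a component of the subcortical maternal complex, had a difference of -1.42 (-3.59 to 0.74), and ZP3 -1.40 (-3.30 to 0.50). For both, the second prepubertal pool was the low one, with 10.17 for NLRP5 and 10.09 for ZP3. For 5 of the 9 genes the interval lay within 2 log2 units of 0, and the half-widths ran from 0.80 to 2.17. These intervals leave room for differences of several fold at NLRP5 and ZP3, and for smaller ones at BMP15 and ZP2.

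Of 43 tested genes of the meiotic cell cycle, 0 passed at unadjusted p under 0.05 in both fits in limma (background 1.37%). In the 9-array fit 1 was lower (background 1.39%). In the 12-array fit 1 was higher (background 1.98%), ANAPC4 of the anaphase-promoting complex. CDCA8, borealin, a subunit of the chromosomal passenger complex, read 14.78 and 15.27 in prepubertal pools 2 and 3 and 15.81 and 16.32 in adult pools 2 and 3. Its difference was -1.04 (95% interval -1.85 to -0.22), but a second probe set of the gene gave 1.47. The kinase AURKA was the most even, with 16.40 and 16.54 against 16.34 and 16.53 and an interval of -0.88 to 0.95, the only one of the list within 1 log2 unit.

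Genes of the meiotic trigger had wider intervals than CDCA8 and AURKA. CCNB1, cyclin B1, differed by -0.44 (-1.51 to 0.64) and CDK1, its kinase, by 1.19 (-1.0 to 3.39). MOS, the kinase that switches on the MAP kinase pathway in oocytes, differed by -0.47 (-2.11 to 1.17). Of the 43 intervals, 16 lay within 2 log2 units of 0, and 31 of the 43 differences were within 1. The widest, that of ANAPC10 of the anaphase-promoting complex, ran from -4.83 to 4.72, so its values set little limit on a difference.

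**Figure D4:**
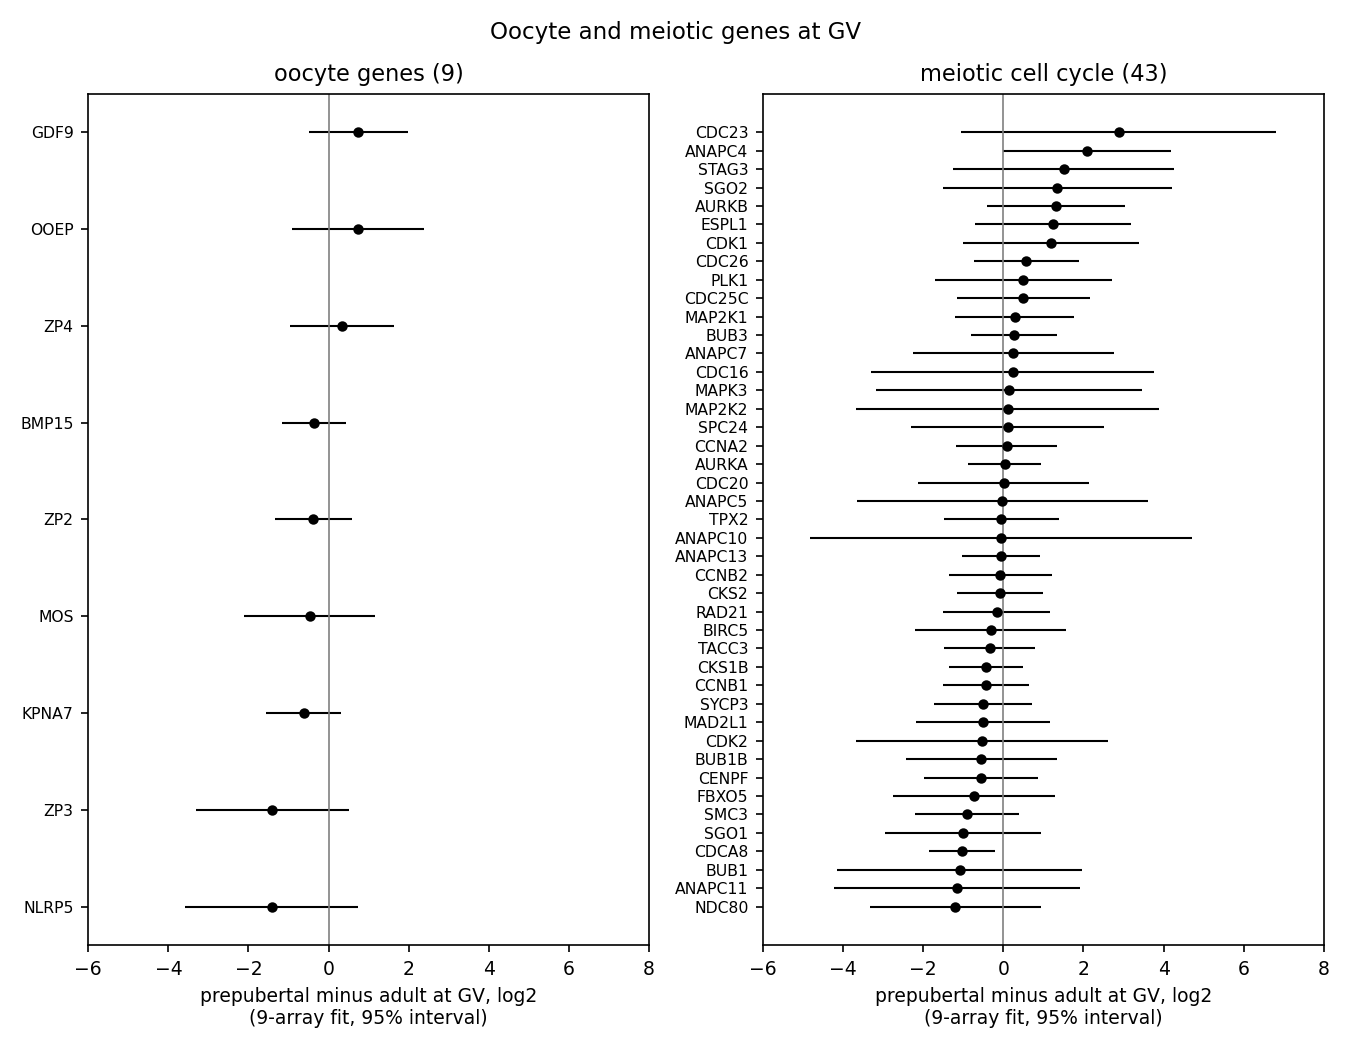
Prepubertal minus adult difference at GV in log2 units (x axis) with its 95% interval from the 9-array fit, for 9 oocyte genes (left) and 43 meiotic cell cycle genes (right). All oocyte intervals cross 0, and of the meiotic genes only CDCA8, at -1.04, has an interval that does not.

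UHRF1, which brings the maintenance DNA methyltransferase to chromatin, had the smallest p among the 77 genes of the chromatin list with 9 arrays. It read 12.86 and 12.42 in prepubertal pools 2 and 3 and 15.16 and 14.31 in adult pools 2 and 3. Those groups did not overlap, and the difference was -2.09 (SE 0.46), with an unadjusted limma p of 0.000392 and an adjusted p of 0.695. Under quantile normalization, median centring, a pseudocount of 32 and the omission of any of the 4 pools it ran from -2.52 to -1.67.

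A second UHRF1 probe set had the same sign with a smaller difference of -0.96, from 10.59 and 12.17 against 12.21 and 12.48. At MII, prepubertal pools 2 and 3 read 13.62 and 14.46 and the adult pools 15.26, 14.78 and 15.24, a difference of -1.05 (unadjusted limma p 0.0237). The first pools read 8.93 and 8.75 at GV, at the level of neither group, and with them the GV difference was -1.33 with an unadjusted p of 0.471. UHRF1 is therefore not among the 198. The rest of the list had 1 gene higher at unadjusted p under 0.05 in limma with 9 arrays, ARID3B (background 3.24%). UHRF1 was the only one of the 77 that was lower (background 1.39%). Neither count exceeded the share of all tested probe sets.

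Transporters, the largest list, also had the most members in both fits. Of 116 tested solute carriers and ABC transporters, 3 were higher and 2 lower in both fits, against 1.08% and 0.291% of all tested probe sets. The higher ones were SLC31A1, SLC11A2 and SLC35A3, and the lower ones ABCC1 and SLC28A3. SLC11A2, an importer of iron and other divalent metals, read 8.77, 7.66 and 9.67 in the prepubertal pools and 6.01, 5.47 and 2.39 in the adult pools, so that both metal importers had no overlap. SLC35A3, a Golgi importer of nucleotide sugars, read 8.96, 7.61 and 7.2 against 8.28, 3.55 and 2.26, so the first adult pool lay among the prepubertal values. ABCB1, the multidrug efflux pump, was lower with 9 arrays, with 8.90 and 6.76 against 12.36 and 12.03 in pools 2 and 3. Its difference was -4.37 (SE 1.03, unadjusted limma p 0.000731, adjusted p 0.763), and -2.23 with 12 arrays, where the first adult pool read 6.50. At MII its 9-array difference was -0.10.

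Of 20 tested genes of calcium release and egg activation, 3 were higher and none lower in both fits in limma at unadjusted p under 0.05, beside 1.08% of all tested probe sets. These were PPP3CA and the plasma membrane calcium pumps ATP2B4 and ATP2B1, which expel calcium from the cell. ATP2B4 read 8.12, 8.19 and 9.75 against 6.17, 5.59 and 3.58. ATP2B1 read 11.08, 12.16 and 11.73 against 5.69, 9.29 and 10.69, and was the brightest of the 3. All 3 had prepubertal pools above every adult pool. The median of the list was 0.23 with 9 arrays, the same as that of all tested probe sets.

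Genes that store and degrade maternal mRNA had 6 of 37 members higher and none lower at this level with 9 arrays (background 3.24%), and 2 in both fits. The 2 were TOB2, an antiproliferative partner of the deadenylases, with 11.72, 9.52 and 7.76 against 6.59, 7.53 and 1.83, and DICER1, the nuclease that makes small RNAs, with 8.55, 5.67 and 11.08 against 5.18, 6.03 and 3.49. The ages overlapped for DICER1 and not for TOB2. XRN2, a nuclear exonuclease, read 11.17, 13.46 and 12.39 against 11.17, 11.07 and 8.45. PATL1, a decapping factor, read 5.91, 7.93 and 8.92 against 8.79, 6.35 and 2.00, and the decapping subunit DCP1A 8.71, 9.48 and 9.47 against 10.72, 8.15 and 2.38. PAPOLA, the canonical poly(A) polymerase, read 10.20, 9.08 and 10.99 against 10.00, 9.22 and 4.20. In these last 4 genes the third adult pool was the lowest of all, and 3 other probe sets of PATL1 gave 0.23, 2.45 and -1.24. The list's median difference with 9 arrays was 0.07.

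The protein synthesis lists depended on the first pools. Of 67 cytosolic ribosomal protein genes, 64 had higher values in prepubertal oocytes in the 12-array fit, with a median difference of 1.78. In the 9-array fit 29 were higher and 38 lower, and the median was -0.08. RPL27 was the 1 member of 67 that passed at unadjusted p under 0.05 in both fits, a share near the 1.08% of all tested probe sets, with 15.00, 12.86 and 12.50 against 7.55, 11.67 and 10.45. Oxidative phosphorylation behaved in the same way, with 61 of 78 higher and a median of 1.10 in the first case, and 39 of 78 and -0.01 in the second. Its 2 members of 78 in both fits (background 1.08%) were SDHA, a subunit of succinate dehydrogenase, with 10.92, 11.40 and 10.72 against 9.64, 6.78 and 8.98, and UQCRFS1, the Rieske protein of complex III, with 13.05, 10.68 and 12.28 against 7.32, 8.39 and 9.87.

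The medians of other lists were also lower when the first pools were left out. The median went from 0.91 to -0.02 for 49 translation factors, from 1.02 to 0.16 for 63 heat shock proteins and chaperonins, and from 0.76 to 0.02 for 41 proteasome genes. It went from 0.76 to 0.04 for 69 spliceosome genes, from 1.11 to -0.05 for 42 antioxidant genes and from 0.78 to 0.15 for 44 genes of glycolysis and the citric acid cycle. It went from 0.42 to -0.11 for lipid metabolism, from 1.21 to 0.27 for the response to unfolded proteins and from 0.53 to 0.16 for mitochondrial ribosomal proteins. Between these fits the only GV arrays removed were the pool with the somatic profile and adult pool 1, which was low for many bright genes.

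The tRNA list had the highest median with 9 arrays. Its 50 genes of tRNA charging and modification had a median difference of 0.47 with 12 arrays and 0.87 with 9, when 36 of 50 were higher. Quantile normalization brought the latter to 0.38, and 3 members were higher at unadjusted p under 0.05 with 9 arrays (background 3.24%). Besides TRMU these were GTPBP3, another modifier of mitochondrial tRNAs, with 10.44, 10.52 and 9.78 against 9.66, 7.54 and 2.31, and KARS1, the lysyl-tRNA synthetase, with 8.33, 7.57 and 6.61 against 10.16, 4.92 and 2.51. A second probe set of TRMU read 7.87 and 7.79 against 7.17 and 7.71 in pools 2 and 3.

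Several list members in both fits belonged to mitochondria or to RNA and protein handling. HSPD1, the mitochondrial chaperonin known as HSP60, read 13.59, 12.17 and 12.35 in prepubertal pools against 10.07, 9.32 and 10.72 in adult pools. Its groups did not overlap and no pool stood far from its group, with a difference of 2.66 (SE 1.11) with 12 arrays and 2.24 (SE 0.89) with 9, but 0.05 at MII with 9 arrays. SNRNP200, the helicase that activates the spliceosome, read 7.97, 7.89 and 10.68 against 6.87, 2.88 and 4.36. EDEM3, which marks misfolded glycoproteins for disposal, read 11.36, 11.95 and 8.56 against 8.83, 6.81 and 5.39, and overlapped. FBXL20, an F-box protein of a ubiquitin ligase, read 8.16, 10.81 and 12.02 against 4.95, 7.71 and 7.98, from a probe set that was not the one used in the list.

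The remaining lists stayed near the median of all probe sets with 9 arrays. Their medians were 0.10 for DNA repair, 0.20 for apoptosis, 0.16 for TGF-beta signalling, 0.28 for meiotic arrest signalling, 0.01 for the cytoskeleton, 0.13 for nuclear transport, -0.08 for ubiquitin conjugation, 0.34 for transporters, 0.01 for chromatin genes and -0.05 for the meiotic cell cycle. Of the marker lists, cumulus and granulosa genes had 0.58, theca and stroma genes 0.44, blood and endothelium genes 0.06 and the oocyte genes -0.38. Over the 28 lists, the median was above that of all tested probe sets in 21 with 12 arrays and in 6 with 9 arrays, and above it in both fits in 5. No list was tested as a set.

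**Figure D5:**
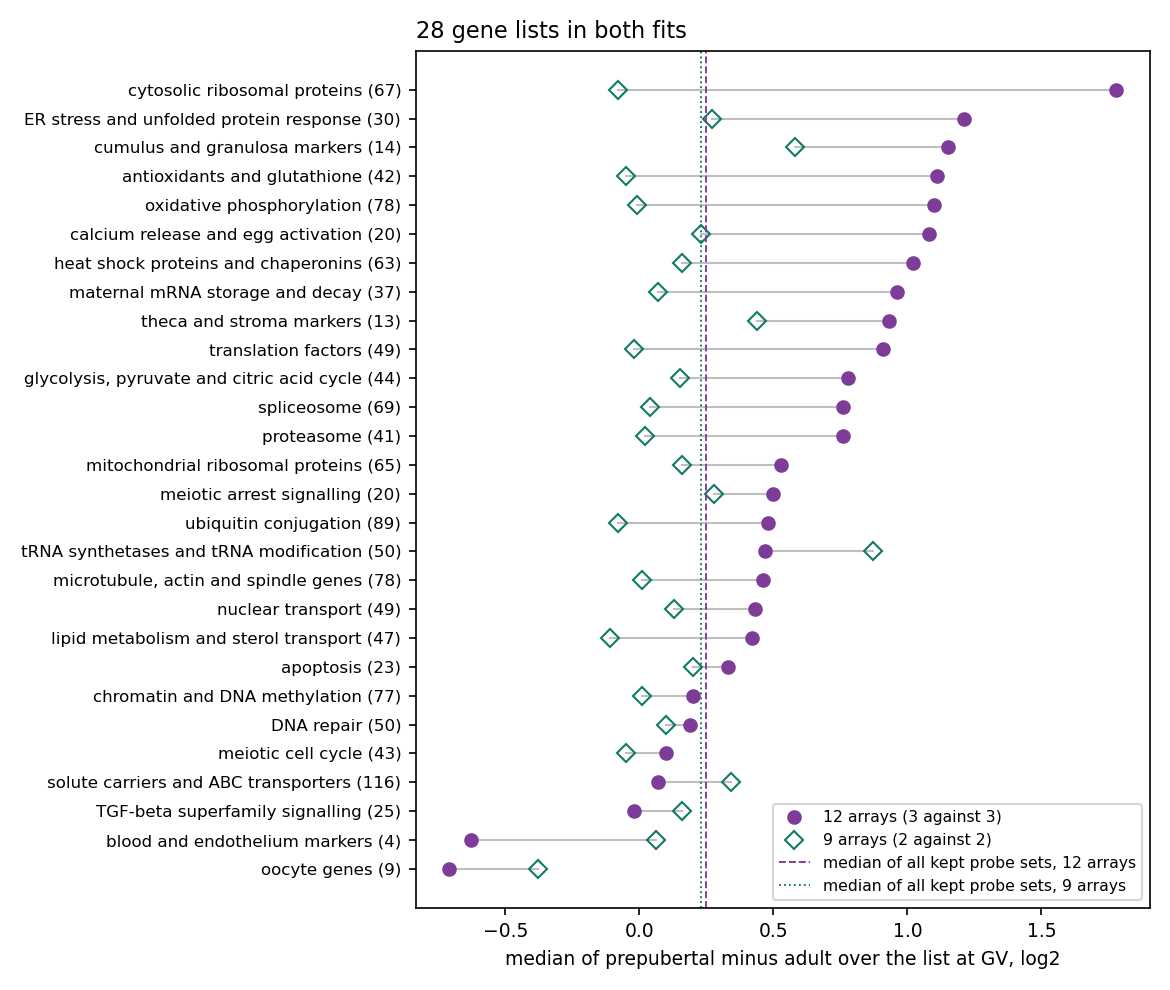
Median of the prepubertal minus adult difference at GV in log2 units (x axis) over the tested members of 28 gene lists (y axis, number of genes in brackets), with filled circles for the 12-array fit and open diamonds for the 9-array fit. Dashed and dotted lines mark the medians of all tested probe sets, 0.25 and 0.23, and cytosolic ribosomal proteins go from 1.78 to -0.08.

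Matured oocytes of the same ages, in other pools, were set beside the 198. The first prepubertal MII pool also lacked an oocyte profile, with the median of the oocyte genes 0.03 above that of its array and 17 of 22 cumulus and granulosa markers above it. Its closest array was prepubertal pool 1 at GV (Spearman coefficient 0.705), and only the 9-array fit leaves both out. Their difference at MII had the same sign as at GV in 129 (65.2%) with 12 arrays, against 55.1% of all tested probe sets, and in 113 (57.1%, against 50.9%) with 9 arrays. The same sign with unadjusted p under 0.05 at MII was found for 5 (2.53%) and 1 (0.505%), beside 2.66% and 2.56% of all tested probe sets with such a p in either direction. The 1 gene in the 9-array fit was MRPS25. At MII it read 6.35, 6.04 and 8.88 in prepubertal pools and 2.90, 3.14 and 2.71 in adult pools, a difference of 4.17 and 4.54 in the 2 fits (unadjusted limma p 0.00722 and 0.00915). All 6 prepubertal pools of both stages were above all 6 adult pools.

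Of the 27 named genes, 20 had the same sign at MII with 12 arrays and 14 with 9. The MII differences with 12 and 9 arrays were 0.01 and -0.03 for TCF3, -0.51 and 0.36 for RBM24, -0.29 and -3.09 for IDH1, and 1.57 and 2.60 for HMGXB4. TCF3 was near 0 at MII in both fits, while IDH1 depended on the first prepubertal MII pool. Whether the age difference differed between the stages was tested as an interaction. In limma 0 probe sets passed the adjusted threshold in either fit, and 174 (1.21%) and 441 (3.06%) had unadjusted p under 0.05 with 12 and 9 arrays. Among the 27 genes, 8 and 10 did so, but they were chosen for their GV difference, which is a part of the interaction, so nothing is read from these counts.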

How the data were processed

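The values are the log2 signals deposited by the authors, made with MAS5 (version not given in the sources used here) per the submitters' processing notes. On each array the trimmed mean of the linear signal was 500. Control probe sets were left out (112), and probe sets with a mean over 12 arrays above the 40th percentile, 5.57, were tested. Their number of arrays limits the precision. Of 24016 probe sets, 13292 had 1 gene symbol, 86 several and 10638 none.

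The fit, 1 mean for each group, used limma 3.58.1 (R 4.3.3) with an intensity trend, over 12 arrays (8 residual degrees of freedom) and over 9 arrays without GV pools 1 and the first prepubertal MII pool (5 residual degrees of freedom). The Benjamini-Hochberg adjustment took in all 14409 tested probe sets, with a threshold of 0.05. The code was tested on simulated data. Members and lists were chosen with earlier results of these data known.

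The named genes are the 1-symbol, non-clone probe sets in both fits whose groups do not overlap and whose higher group exceeds each array's median, up to 14 a direction by the smaller difference. List members could be named in any case, for most lists those with the smallest p with 9 arrays. Each gene entered a list through its brightest probe set. Alternatives were another normalization, filter, pseudocount, threshold, set of arrays, covariate or probe set summary, array weights, and leaving out each pool.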

Additional observations from a re-analysis of the deposited data

How the results depend on the processing

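The count of probe sets past the adjusted threshold stayed 0 under each alternative except these. Array weights gave 1 with 12 arrays, and leaving out a pool gave 0 to 0 with 12 arrays and 0 to 2 with 9 arrays. The 2 came without the third adult pool and were TCF3 (difference 9.07, adjusted limma p 0.0495) and a probe set without a name (7.46, 0.0383), and they rest on 1 adult pool assumed to vary like the others. A threshold of unadjusted p under 0.05 with at least a 2-fold difference gave 362 and 665. Unadjusted counts ran from 181 to 1062 with 12 arrays, and from 277 to 881 with 9 arrays where no further pool was left out. The lowest, 181 and 277, came from means over the probe sets of a gene, with 6842 genes tested. The 881 came without the filter, with 24016 probe sets tested. The interaction count stayed 0 under both other normalizations.

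The 198 probe sets of both fits became 127 with only the GV arrays and, in an alternative chosen after seeing the data, 315 with array weights. Leaving out 1 pool, also chosen afterwards, gave 159 to 426, of which the highest came without the first adult pool. Of the 198, 66 remained without the third adult pool and 79 without the second or the third prepubertal pool, as did 8, 16 and 10 of the 27 named genes. The number of lists above the general median in both fits, 5, was 14 with quantile normalization and 3 to 17 with a pool left out. Of 432 values of the 27 named genes under alternatives, 40 moved by over 1.5 times. None changed sign, which the choice of genes without overlap fixes when a pool is left out.

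Same-numbered GV pools deviated together in pools 1 and 3 (0.383 and 0.381) but not in pool 2 (-0.021), so the numbers were not taken as pairs. With a replicate block over the GV arrays alone, 0 passed the adjusted threshold in limma, and 617 and 692 had unadjusted p under 0.05, against 229 and 450 without it. Probe sets with a mean signal below 6 are dim, and their differences had a median standard error of 1.91 with 9 arrays.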
